A study of Homo sapiens with 5 samples.

Results

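The genes described here encode the human microRNA machinery. They are the 4 Argonautes AGO1 to AGO4, the 3 TNRC6 scaffold proteins TNRC6A to TNRC6C, and the 3 core processing factors DICER1, DROSHA and DGCR8. They were listed by symbol, and all 10 were found among the 60651 genes of the files and were among the 16341 genes tested. The libraries came from COLO 320DM, a human colorectal adenocarcinoma line, and each was made from cells given a different siRNA. USP17 siRNA was represented by siIDT, sino4 and siSMPLT (n = 3), and control siRNA by siL2 and siNT (n = 2). Only siNT and L2 are called non-silencing by the series, so the remaining 3 were assigned to USP17, a deubiquitinase, by elimination. Every library thus came from cells given an siRNA, and none without one was among them. There was a single library per duplex, and separate cultures are not mentioned in the labels. The libraries that stand as replicates of a group are thus different siRNAs. A p-value here reflects the spread among 5 libraries. Differences between siRNAs of a group, between cultures and of technical origin cannot be told apart in that spread, and it may be technical.

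A microRNA is cut from its primary transcript in the nucleus by the Microprocessor, in which the RNase III enzyme DROSHA works with the RNA-binding protein DGCR8. DICER1 cuts the exported hairpin to a short duplex, of which 1 strand is kept by an Argonaute protein. TNRC6 proteins, known as GW182 proteins, bind Argonaute and recruit the deadenylases that shorten the tails of target mRNAs. Transfected siRNAs enter the same Argonautes, and AGO2 is the member best known for slicing a perfectly paired target.

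Reads in genes numbered 31704821 to 36276143 per library, so a count of 0 allows up to 0.0827 to 0.0946 CPM (a gene's reads scaled to the library's total in genes), for counting error only. None of the 30 genes with a USP17L symbol, the family of USP17, had a read on its own strand in any library, controls included. Their deposited expected counts, estimated by the program RSEM, summed to 0 in every library too. The knockdown could therefore not be checked. Reads on no gene's own strand were 7.05% to 7.49% of all reads with USP17 siRNA and 6.37% and 6.58% in the controls, without overlap. Of 8 colon epithelial markers 6 were tested. CDX2, an intestinal transcription factor, fell (1652 ± 29.7 CPM, SD, n = 3, against 2052 ± 64.4, SD, n = 2) and the cadherin CDH17 rose (49.9 ± 2.15 against 27.2 ± 0.124 CPM), while the others were not called. KRT8 was at 62.3 to 76.8 CPM over the libraries, KRT18 at 60.0 to 76.4 CPM and KRT20 averaged 4.84 ± 1.52 (SD) with USP17 siRNA and 2.85 ± 1.42 (SD) in the controls. EPCAM was at 1.96 to 2.75 CPM, and CDH1 and VIL1, defining markers of colon epithelium, were near 0, at no more than 0.217 CPM in any library. Leukocyte markers summed to 48.2 to 53.4 CPM against 45.6 to 57.2 CPM, nearly all of it PTPRC, with MS4A1 at 0. Fibroblast markers summed to 42.6 to 56.2 against 51.5 to 59.7 CPM and endothelial markers to 0.0612 to 0.156 against 0.255 to 0.35 CPM. The part of these differences in the results was not tested. In bulk RNA, fewer cells with a transcript and less of it per cell cannot be told apart.

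With USP17 siRNA, 4 of the 10 genes rose and none fell. TNRC6C nearly doubled (1.96-fold), AGO4 rose 1.76-fold, AGO1 1.47-fold and TNRC6A 1.33-fold. AGO2 stood 0.821-fold and did not pass the test, and AGO3, TNRC6B, DICER1, DROSHA and DGCR8 did not pass it either. Over all genes tested, 4.64% were called higher and 5.82% lower by edgeR's quasi-likelihood test at an adjusted p of 0.05. The median log2 fold change of the 10 genes was 0.16, against 0.005 over all genes. In 7 of the 10 the groups did not overlap, 6 with USP17 siRNA higher and 1 lower, where 45.9% of all genes tested had no overlap. The count of called members fell to 2 without siIDT and to 1 without sino4, as the count over all genes fell from 1710 to 349 and 130. Called members stayed at 4 without siSMPLT or siL2 and numbered 5 without siNT.

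**Figure D1:**
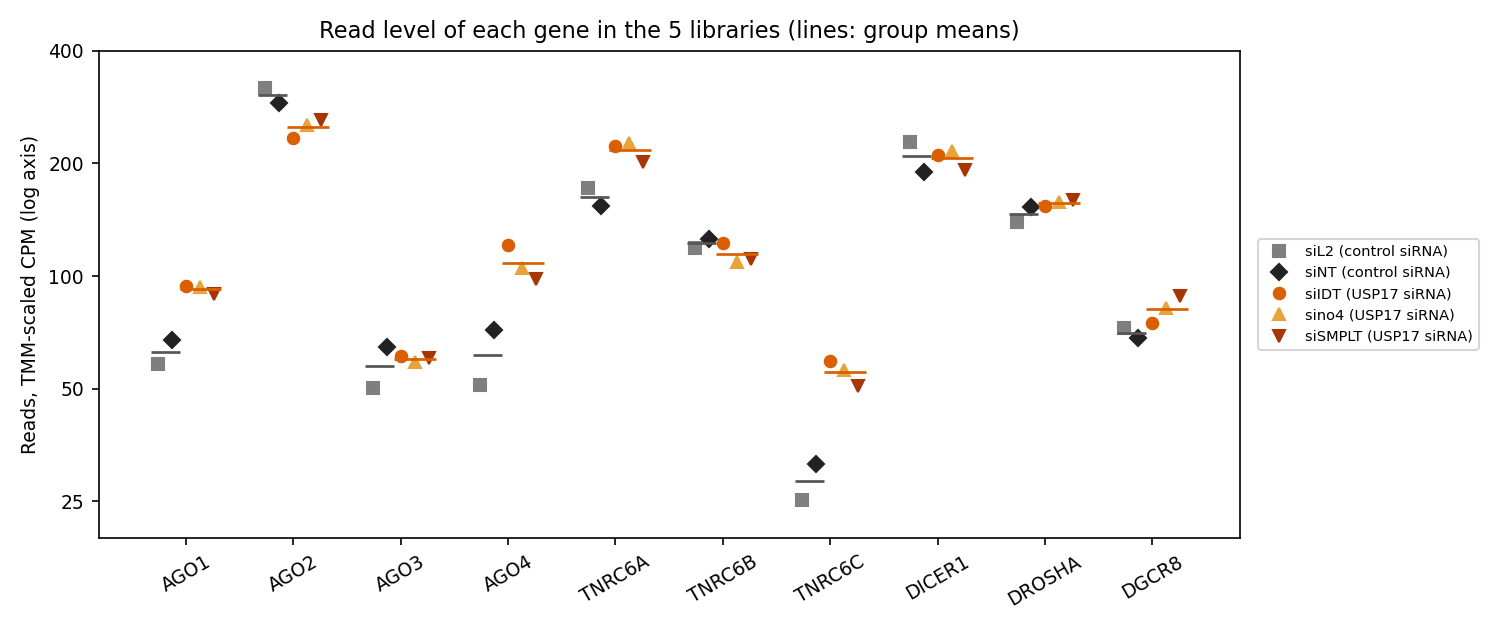
Read level of each gene in each of the 5 libraries, in TMM-scaled CPM on a log axis, with symbols for libraries and short lines for the group means. For TNRC6C, AGO4, AGO1 and TNRC6A the 3 USP17 siRNA libraries lie above both controls, and for AGO2 they lie below both.

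Among the Argonautes, AGO4 had the largest change. AGO4, an Argonaute without slicer activity, measured 121, 105 and 98.2 CPM in siIDT, sino4 and siSMPLT and 51.2 and 71.7 CPM in siL2 and siNT. All 3 USP17 libraries were above both controls, siIDT farthest, and the controls themselves were 1.4-fold apart. This gave 0.82 ± 0.15 (SE) as log2 fold change and 0.0166 as edgeR's adjusted p. That call was lost in edgeR when siIDT (adjusted p 0.0608) or sino4 (0.0706) was left out.

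AGO1, which also lacks efficient slicing and acts mainly through TNRC6 proteins, measured 94.2, 93.5 and 89.5 CPM in siIDT, sino4 and siSMPLT. The controls were at 58.2 CPM in siL2 and 67.5 CPM in siNT. The USP17 libraries lay close together, at 92.4 ± 2.53 CPM (SD, n = 3), well clear of the controls at 62.9 ± 6.59 CPM (SD, n = 2). On the log2 scale AGO1 was 0.56 ± 0.09 (SE) higher, at 0.0113 for edgeR's adjusted p and 0.0709 without sino4.

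AGO2, the slicing Argonaute and by reads the most abundant of the 4, was lower with USP17 siRNA without passing the test. It measured 234, 253 and 261.5 CPM in siIDT, sino4 and siSMPLT against 318 and 289.6 CPM in siL2 and siNT. All 3 USP17 libraries were below both controls, siIDT lowest. Its log2 fold change of -0.28 ± 0.08 (SE) had an edgeR adjusted p of 0.0519. Over the alternatives that kept all libraries the adjusted p was 0.0226 to 0.0669, and it passed with DESeq2's size factors (0.0499), DESeq2's Wald test (0.0226) and unstranded counts (0.0486), and in edgeR without siNT (-0.35, 0.019).

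AGO3 measured 61.1, 59.0 and 60.6 CPM in siIDT, sino4 and siSMPLT and 50.3 and 64.7 CPM in siL2 and siNT. All 3 USP17 values lay between the 2 controls. AGO3's log2 fold change was 0.07 ± 0.11 (SE, adjusted p 0.733 in edgeR's test), and its sign turned without siL2 (-0.10).

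These 3 Argonaute genes are neighbours. AGO4, AGO1 and AGO3 lie in that order on the + strand of chromosome 1 (GRCh38, GENCODE 29), at 35808172 to 35857890, 35869808 to 35930528 and 35930718 to 36072500. AGO4 and AGO1 are 11917 bases apart and AGO1 and AGO3 189 bases. The RefSeq starts of AGO1 and AGO3 used next lie inside their GENCODE genes. The 2 upstream genes of the cluster rose, while AGO3, the next along, did not pass the test. Within 500 kb of the cluster 17 other coding genes were tested, of which 1 was called higher, ZMYM4 (log2 fold change 0.30), and 2 lower, PSMB2 (-0.51) and MRPS15 (-0.33).

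RefSeq promoter entries (GRCh38.p14) matched 9 of the 10 genes. The 250 bases before the RefSeq start are shown 5′ to 3′ for the 3 neighbours, because they lie side by side and differed in outcome, and for TNRC6C, which changed most. Capitals mark matches on either strand to the E-box CACGTG (MYC and its relatives bind it), the GC box GGGCGG or the CCAAT box; CTTTGAT, the core recognised by TCF/LEF factors, was searched too. TNRC6C has 4 RefSeq starts, and the entry nearest the start of its GENCODE gene is shown. AGO3's last 27 bases, annotated as exon, are left out of the print but counted in its GC content and motifs. The windows printed are chr1:35807766-35808015 for AGO4, chr1:35882959-35883208 for AGO1, chr1:35930855-35931077 for AGO3 and chr17:77958453-77958702 for TNRC6C, all on the + strand.
AGO4: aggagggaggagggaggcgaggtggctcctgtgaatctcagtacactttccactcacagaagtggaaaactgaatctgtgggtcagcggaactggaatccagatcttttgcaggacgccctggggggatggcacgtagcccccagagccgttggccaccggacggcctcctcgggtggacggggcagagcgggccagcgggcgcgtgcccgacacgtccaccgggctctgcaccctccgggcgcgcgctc
AGO1: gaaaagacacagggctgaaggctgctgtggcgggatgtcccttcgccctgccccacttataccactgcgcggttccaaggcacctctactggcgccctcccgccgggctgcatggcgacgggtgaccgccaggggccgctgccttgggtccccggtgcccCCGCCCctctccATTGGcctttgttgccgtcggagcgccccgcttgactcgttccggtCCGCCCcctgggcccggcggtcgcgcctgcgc
AGO3: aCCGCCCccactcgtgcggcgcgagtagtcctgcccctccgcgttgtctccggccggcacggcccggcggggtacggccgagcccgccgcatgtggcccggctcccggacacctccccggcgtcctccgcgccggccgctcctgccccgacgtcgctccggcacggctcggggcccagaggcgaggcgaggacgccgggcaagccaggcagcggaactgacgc
TNRC6C: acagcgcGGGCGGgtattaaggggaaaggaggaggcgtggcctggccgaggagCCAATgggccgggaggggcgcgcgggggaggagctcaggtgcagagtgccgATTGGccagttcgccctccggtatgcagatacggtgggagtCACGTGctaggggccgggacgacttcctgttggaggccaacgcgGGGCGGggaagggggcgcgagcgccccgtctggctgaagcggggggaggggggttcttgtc
The GC content of these windows was 66.4%, 71.6%, 80.0% and 70.4% in AGO4, AGO1, AGO3 and TNRC6C, against a median of 58.0% over 35116 RefSeq promoters. AGO4's window matched none of the motifs. AGO1's held 2 GC boxes and 1 CCAAT box, AGO3's 2 GC boxes, 1 of them in the bases not printed, and TNRC6C's 2 GC boxes, 2 CCAAT boxes and 1 E-box. TNRC6C's other windows, not shown, differed from it. The window at chr17:78040660-78040909 held 1 GC box and 1 TCF/LEF core. Those at chr17:77957307-77957556 and chr17:78003987-78004236 held none of the motifs. Of all promoters 42.6% held a GC box, 32.0% a CCAAT box, 6.34% an E-box and 2.26% the TCF/LEF core. The motifs overlap one another in none of the windows shown. A match is a string of letters, and no binding was measured here.

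**Figure D2:**
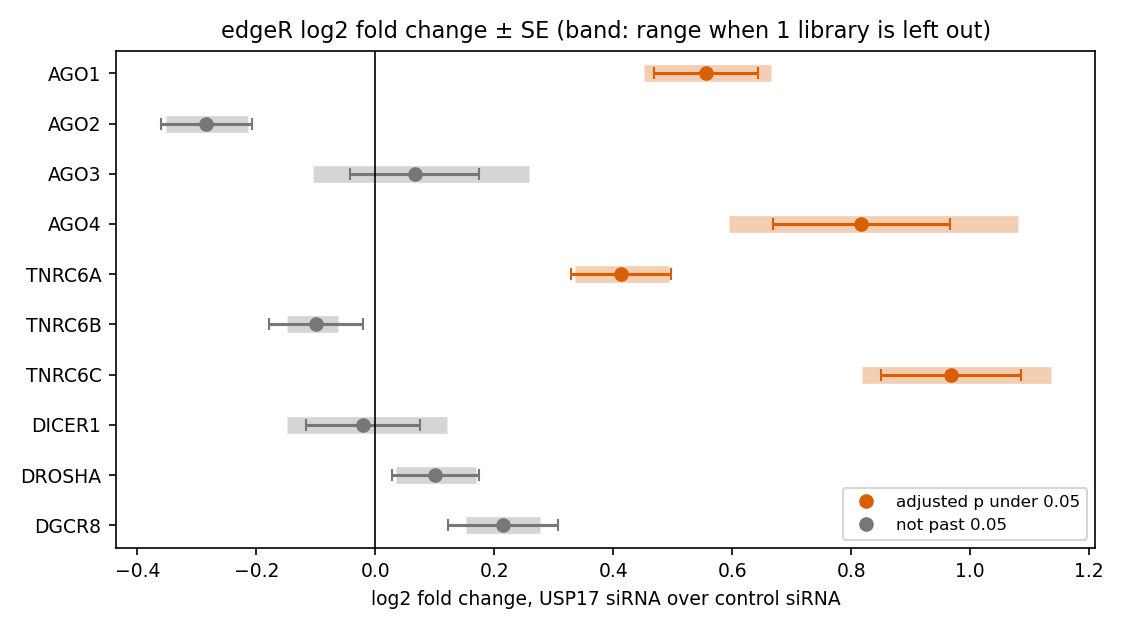
Log2 fold change of each gene, USP17 siRNA over control siRNA, from edgeR; points are estimates, bars the SE, and pale bands the range over fits that each leave out 1 library. TNRC6C, AGO4, AGO1 and TNRC6A, past an adjusted p of 0.05, have bands wholly above 0, and the bands of AGO3 and DICER1 cross it.

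Among the TNRC6 scaffolds, TNRC6C had the largest change of the 10 genes. TNRC6C measured 59.5, 56.1 and 50.8 CPM in siIDT, sino4 and siSMPLT and 25.2 and 31.5 CPM in siL2 and siNT. Every USP17 library was at least 1.5-fold above both controls, which 1.32% of all genes tested showed and no other member did. TNRC6C's log2 fold change of 0.97 ± 0.12 (SE) had an edgeR adjusted p of 0.0048. The call held in every alternative run, with an adjusted p of at most 0.0366 when 1 library was left out.

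The scaffold genes are not linked: TNRC6A lies on chromosome 16 at 24610209 to 24827632, TNRC6B on 22 at 40044817 to 40335808 and TNRC6C on 17 at 77959240 to 78108835, all on the + strand (GRCh38, GENCODE 29). TNRC6A, the founding GW182 protein, measured 222, 227 and 202 CPM in siIDT, sino4 and siSMPLT against 172 and 154 CPM in siL2 and siNT. The groups did not overlap, and siSMPLT came nearest to the controls. For TNRC6A the log2 fold change was 0.41 ± 0.08 (SE) and edgeR's adjusted p 0.0212, which became 0.0842 without siIDT and 0.116 without sino4.

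TNRC6B, the remaining paralog, measured 122, 109 and 111 CPM in siIDT, sino4 and siSMPLT against 119 and 125 CPM in siL2 and siNT. Its groups overlapped, siIDT lying between the controls. It had a log2 fold change of -0.10 ± 0.08 (SE, adjusted p 0.452 in edgeR's test).

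None of the 3 processing genes was called. DICER1 lies on chromosome 14 at 95086228 to 95158010 and DROSHA on 5 at 31400497 to 31532196, both on the - strand, and DGCR8 on 22 at 20080232 to 20111877 on the + strand. DICER1, which makes the mature duplex, measured 211, 216 and 192 CPM in siIDT, sino4 and siSMPLT and 228 and 189.7 CPM in siL2 and siNT. All 3 USP17 libraries lay between the controls, and the log2 fold change of -0.02 ± 0.10 (SE) turned positive without siL2 (0.12) and without siSMPLT (0.03).

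DROSHA, the nuclease of the Microprocessor, measured 154, 157.5 and 159 CPM in siIDT, sino4 and siSMPLT and 139 and 153 CPM in siL2 and siNT. The groups did not overlap, but siIDT and siNT were 153.6 and 153 CPM. DROSHA's log2 fold change was 0.10 ± 0.07 (SE, adjusted p 0.401 in edgeR's test). DGCR8, its RNA-binding partner, measured 74.8, 82.3 and 88.6 CPM in siIDT, sino4 and siSMPLT and 72.9 and 68.3 CPM in siL2 and siNT. Its groups did not overlap either, and siIDT lay just above siL2. DGCR8's log2 fold change was 0.22 ± 0.09 (SE, adjusted p 0.164 in edgeR's test).

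The duplexes did not rank alike over the genes. Each was set against the mean log2 CPM of the same 2 controls, so their differences share those controls. For TNRC6C the differences were 1.08, 0.99 and 0.85 in siIDT, sino4 and siSMPLT, and for AGO4 1.002, 0.79 and 0.70. AGO2 was in the same order with opposite sign, at -0.38, -0.26 and -0.22. DGCR8 was in the reverse order, at 0.09, 0.22 and 0.33. TNRC6A was highest in sino4, at 0.48, against 0.45 in siIDT and 0.31 in siSMPLT. With 1 library for each duplex, these differences between duplexes have no replicate check.

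The controls differed too. In siNT against siL2 no member was 1.5-fold apart, while 12.9% of all genes tested were. AGO4 came nearest, 1.4-fold higher in siNT, followed by AGO3 (1.29-fold) and TNRC6C (1.247-fold). DICER1 was 0.831-fold in siNT, TNRC6A 0.898-fold and AGO2 0.91-fold. TNRC6C and AGO4, the members that rose most, were thus also higher in siNT than in siL2.

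Levels of different genes were compared by TPM, the authors' length-scaled unit. In the controls DROSHA was highest, at 76.0 ± 1.56 TPM (SD, n = 2), followed by DICER1 (39.0 ± 7.55), AGO2 (34.5 ± 0.622) and TNRC6A (34.3 ± 1.3), whose values overlapped. DGCR8 was at 27.5 ± 0.318 TPM, AGO3 and TNRC6B, which overlapped, at 18.85 ± 3.11 and 17.8 ± 0.0707, AGO4 at 13.7 ± 2.56, AGO1 at 10.1 ± 0.601 and TNRC6C last at 4.78 ± 0.778. With USP17 siRNA DROSHA was still first, at 89.3 ± 2.99 TPM (SD, n = 3), and TNRC6C last, at 10.48 ± 0.431. TNRC6A was second at 46.35 ± 3.3, above DICER1 at 38.9 ± 3.2. DGCR8 (31.5 ± 2.31) overlapped AGO2 (28.9 ± 1.74), which overlapped AGO4 (25 ± 2.38). AGO1 (14.7 ± 0.309), TNRC6B (14.6 ± 0.462) and AGO3 (14.1 ± 1.2) could not be ordered within their spread. DROSHA's first place depends on the length scaling. By reads it averaged 146 CPM in the controls, below AGO2 (304), DICER1 (209) and TNRC6A (163). Its TPM there was scaled by a mean length of 2832 bases, while its annotated transcripts have at most 1261 or at least 4681 bases.

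AGO2 held a smaller share of the summed Argonaute mRNA in all 3 USP17 libraries than in both controls, and AGO4 a larger one. Summed Argonaute mRNA was 83.1, 81.3 and 83.8 TPM in siIDT, sino4 and siSMPLT and 73.1 and 81.1 TPM in siL2 and siNT. AGO2 made up 33.1%, 34.8% and 36.8% of it in siIDT, sino4 and siSMPLT against 47.8% and 42.0% in siL2 and siNT. AGO4 made up 33.4%, 29.4% and 27.9% against 16.2% and 19.1%. AGO1 stood at 17.8% ± 0.41 (SD, n = 3) against 13.1% ± 0.18 (SD, n = 2), and AGO3 at 17.1% ± 1.5 against 24.4% ± 2.2. In all 4 the groups did not overlap in TPM, and in siIDT the TPM share of AGO4 was level with that of AGO2. No test was run on these shares. From reads with no length scaling, the AGO2 share was 45.8%, 49.6% and 51.3% against 66.6% and 58.7%. In siIDT AGO4 had 3967 reads and AGO2 7652, so they were not level by reads. AGO3's reads overlapped between the groups. The mean transcript length behind its TPM was 6235 bases with USP17 siRNA and 4402 bases in the controls.

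Summed TNRC6 mRNA was 71.1, 74.5 and 68.8 TPM in siIDT, sino4 and siSMPLT and 57.3 and 56.5 TPM in siL2 and siNT, with no overlap. TNRC6A was the largest part in every library, at 62.3% to 66.3% with USP17 siRNA and 61.5% and 59.1% in siL2 and siNT. TNRC6C made up 14.7% ± 0.89 (SD, n = 3) against 8.41% ± 1.5 (SD, n = 2), and TNRC6B 20.5% ± 1.4 against 31.3% ± 0.2.

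**Figure D3:**
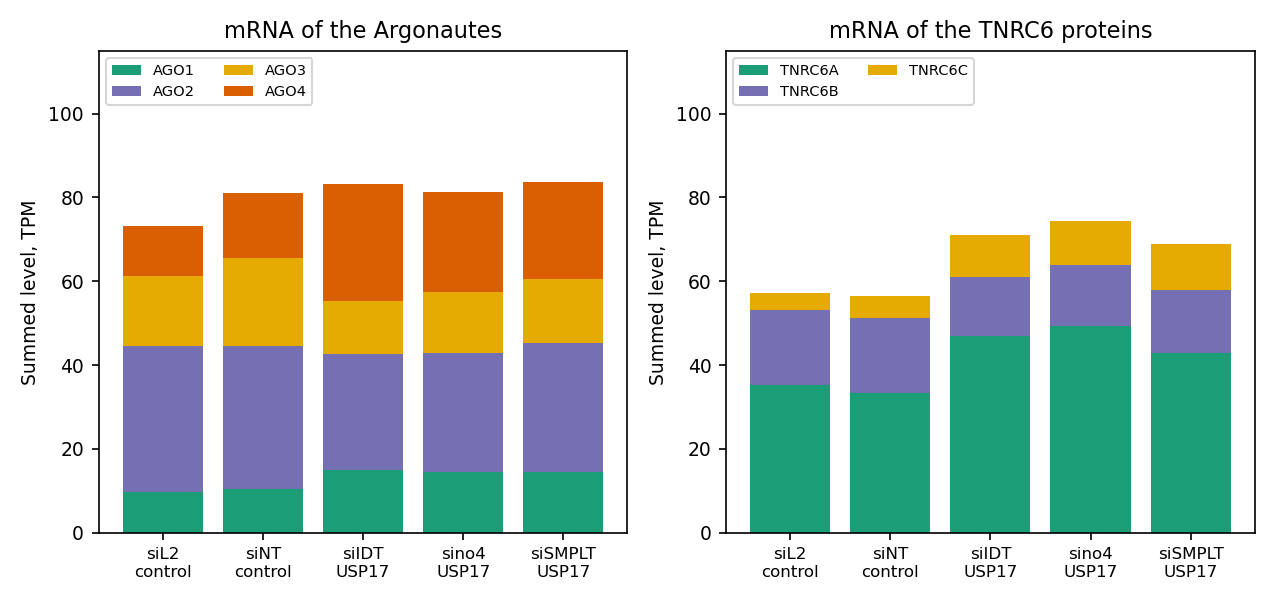
Summed TPM of the 4 Argonaute mRNAs (left) and the 3 TNRC6 mRNAs (right) in each library, with 1 colour for each gene. The Argonaute columns are 73.1 to 83.8 TPM high while the AGO4 segment is larger in all 3 USP17 siRNA libraries than in both controls; the TNRC6 columns are higher with USP17 siRNA.

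AGO3 differed between its reads and its TPM. Its TPM was 12.8, 14.6 and 15.05 in siIDT, sino4 and siSMPLT against 16.65 and 21.05 in siL2 and siNT, a ratio of means of 0.75, while its reads overlapped. TPM divides by the mean transcript length, which RSEM, the authors' estimation program, gives a gene by weighting its transcripts by abundance. That length was 6981, 5854 and 5869 bases in siIDT, sino4 and siSMPLT and 4363 and 4441 bases in siL2 and siNT, or 1.42 times as long with no overlap. Such a non-overlapping lengthening of at least 1.2-fold was seen in 1.44% of all genes tested, and a like shortening in 0.881%. AGO3 was the single member that met it, and this threshold was set after the values were seen.

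RSEM divided AGO3 among 7 transcripts, the same 7 as in GENCODE 29. The longest has 19687 bases, with a 3' UTR of 16755 bases, and the next has 3599. A mean length above 3599 bases therefore needs a share of the longest transcript. That share was at least 21.0%, 14% and 14.1% in siIDT, sino4 and siSMPLT and at least 4.75% and 5.23% in siL2 and siNT. These are least shares from RSEM's own estimate, and the transcripts were not measured one by one here.

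TNRC6B also had a longer mean in all 3 USP17 libraries, at 12287, 10749 and 10453 bases in siIDT, sino4 and siSMPLT against 9357 and 9980 in siL2 and siNT. It was 1.16 times as long, under the 1.2-fold used here. Its TPM was 14.6 ± 0.462 (SD, n = 3) against 17.8 ± 0.0707 (SD, n = 2) although its reads overlapped. DROSHA was shorter, at 2638 ± 54 bases (SD, n = 3) against 2832 ± 140 (SD, n = 2). DGCR8 was 1.03 times as long, at 3981 ± 47 bases (SD, n = 3) against 3864 ± 74 (SD, n = 2). In both the groups did not overlap. The share of all genes without overlap in length, whatever the fold, was not computed. The rises of AGO1, AGO4 and TNRC6A came without such a shift, since their lengths overlapped between the groups. TNRC6C's lengths overlapped too, at 8453, 7370 and 6747 bases against 8501 and 8306.

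**Figure D4:**
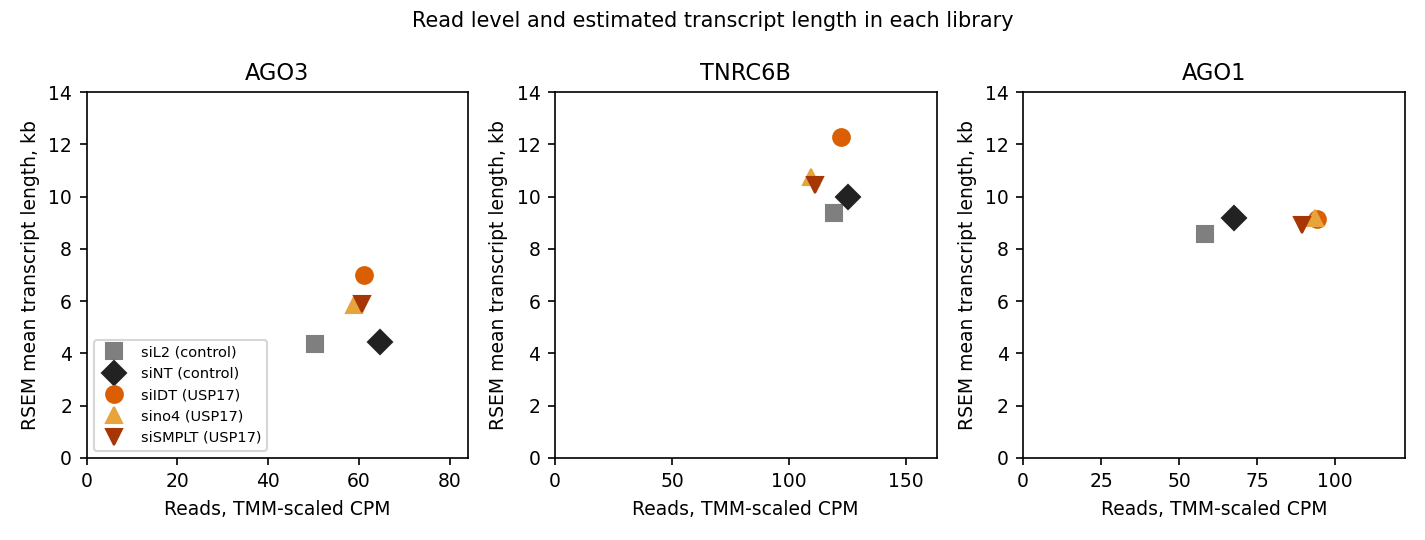
RSEM mean transcript length (kb) against read level (TMM-scaled CPM) for AGO3, TNRC6B and AGO1, 1 symbol for each library. AGO3 points differ in height (4.4 kb in the controls, 5.9 to 7.0 kb with USP17 siRNA) at like read levels, whereas AGO1 points differ in read level at like lengths.

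The 7-base strings looked up here had been picked in an earlier scan of these same libraries, ATCACTC and TCACTCA because genes with them in the 3' UTR stood lower with USP17 siRNA, and GATCATC because such genes stood lower in siL2. They serve only as a description. The longest 3' UTR of each gene in GENCODE 29 was searched on the mRNA strand. ATCACTC was in 2 of the 10 genes, TNRC6B and DICER1, TCACTCA in 3, AGO2, AGO3 and TNRC6B, and GATCATC in 3, AGO1, AGO3 and TNRC6B. None of the 4 genes that rose held ATCACTC or TCACTCA, and AGO1 held GATCATC at 2 places. Over 12468 genes searched the strings were in 7.95%, 12.2% and 6.32%, and in 3' UTRs of 5000 bases or more in 29.1%, 42.0% and 24.6%. The 3' UTRs of AGO1, AGO2, AGO3 and TNRC6B are longer than that, at 10921, 11888, 16755 and 12567 bases, against a median of 1382. Those of AGO4, TNRC6A and TNRC6C, the other genes that rose, are shorter than 5000 bases, at 4285, 2420 and 3990. So are those of DICER1, DROSHA and DGCR8, at 4270, 935 and 1767 bases.

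A choice of sites in members that did not rise, and those of AGO1, are printed 5′ to 3′ with the string in capitals and 10 bases on each side. AGO2's are not shown. ATCACTC starts at base 225 of the TNRC6B 3' UTR and at base 2575 of DICER1's, and TCACTCA at bases 3304 and 14507 of AGO3's. GATCATC starts at bases 8017 and 8613 of AGO1's.
TNRC6B: aagagaacatATCACTCttgaaatact
DICER1: gaaaaaaaaaATCACTCtatgttgccc
AGO3: taattttcagTCACTCAtatatgctag
AGO3: tgtgcttattTCACTCAtgtctttgca
AGO1: aagcaagtaaGATCATCcatcaggagt
AGO1: cagtgatattGATCATCttttcatgtg
Of the members with ATCACTC or TCACTCA, TNRC6B had a log2 fold change of -0.10, DICER1 -0.02, AGO3 0.07 and AGO2 -0.28, none of them called. Any part of these strings in the levels was not tested.

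The other genes of the pathway are given by list, against 10.5% of all genes tested that were called in either direction. Of 13 cofactors of the Microprocessor and of nuclear export, 1 rose and none fell (median log2 fold change -0.01). The riser was DDX17, a DEAD-box helicase of the Microprocessor, at 867, 871 and 897 CPM in siIDT, sino4 and siSMPLT against 750.3 and 696 CPM in siL2 and siNT. Its log2 fold change was 0.28 ± 0.06 (SE, adjusted p 0.0295 in edgeR's test), and the call was lost without any 1 of the USP17 libraries (0.0887 to 0.14). XPO5, which exports precursor hairpins, was at 177 ± 3.77 CPM (SD, n = 3) against 178 CPM.

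Of 13 Dicer partners and chaperones that load Argonaute, none rose and 2 fell (median -0.06). HSP90AB1, a constitutive HSP90, measured 2206, 2088 and 2190 CPM in siIDT, sino4 and siSMPLT against 2660 and 2580 CPM in siL2 and siNT. Its log2 fold change was -0.28 ± 0.06 (SE, adjusted p 0.0216 in edgeR's test). AHSA1, the activator of the HSP90 ATPase, stood at 101 ± 1.11 CPM (SD, n = 3) against 131 CPM, a log2 fold change of -0.38 ± 0.08 (SE, adjusted p 0.0263 in edgeR's test). TARBP2, DICER1's double-stranded RNA-binding partner, was at 23.0 to 26.5 CPM against 29.01 and 25.6 CPM and did not pass. Both calls were lost without any 1 of the USP17 libraries.

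Of 31 silencing effectors tested, a list of deadenylases, decapping factors and proteins linked to Argonaute or TNRC6, 3 rose and 2 fell (median 0.03). The risers were MOV10 (log2 fold change 0.32 ± 0.07 SE), an Argonaute-bound helicase, DCP2 (0.40 ± 0.09), the decapping enzyme, and PAN3 (0.44 ± 0.11), a subunit of the PAN2-PAN3 deadenylase that TNRC6 binds. Those that fell were IPO8 (-0.43 ± 0.10), an importin that binds Argonaute, and CNOT6L (-0.29 ± 0.07), a catalytic deadenylase of CCR4-NOT. MOV10 measured 180, 184 and 172 CPM in siIDT, sino4 and siSMPLT against 143 and 144 CPM in siL2 and siNT, with the controls close together. CNOT1, the scaffold of CCR4-NOT, was at 1170 ± 139 CPM (SD, n = 3) against 1305 CPM and did not pass. In edgeR's test without siIDT, or without sino4, none of the 5 held its call; without siSMPLT DCP2 alone did, and PAN3 lost its call without siL2, DCP2 and CNOT6L theirs without siNT.

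Of the microRNA tailing and decay genes 7 of 9 were tested and none was called (median -0.02), and LIN28A, a let-7 inhibitor, had 0 reads in every library. Of the PIWI clade, the germline relatives of the Argonautes, PIWIL2 alone was tested and not called, at 8.07 to 8.72 CPM against 5.05 and 8.04 CPM, and PIWIL1 and PIWIL3 had 0 reads. Of the 25 microRNA host transcripts 14 were tested, with 2 higher and none lower (median 0.42), and their summed level was 94.3 to 100.4 CPM against 76.0 and 78.8 CPM. DLEU2, the host of miR-15a and miR-16-1, measured 25.2, 29.9 and 26.6 CPM in siIDT, sino4 and siSMPLT against 19.6 and 21.2 CPM in siL2 and siNT (log2 fold change 0.42 ± 0.11 SE, adjusted p 0.0406 in edgeR's test). MIR193BHG stood at 3.90 ± 0.123 CPM (SD, n = 3) against 2.45 CPM (0.67 ± 0.18 SE, adjusted p 0.0495). Both calls were lost without any 1 USP17 library, without siL2 and without the filter on low counts (adjusted p 0.0552 for DLEU2 and 0.0667 for MIR193BHG in edgeR), DLEU2's also with unstranded counts (0.0773) and MIR193BHG's with RSEM counts (0.0661). MIR17HG, the host of the miR-17-92 cluster, was at 28.4 to 30.6 CPM against 27.4 and 20.8 CPM and did not pass. Mature microRNAs are not measured in poly(A)-selected RNA. The shares called were 7.69% of the Microprocessor list, 15.4% of the Dicer list, 16.1% of the silencing list and 14.3% of the host transcripts, from 1 to 5 genes each.

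**Figure D5:**
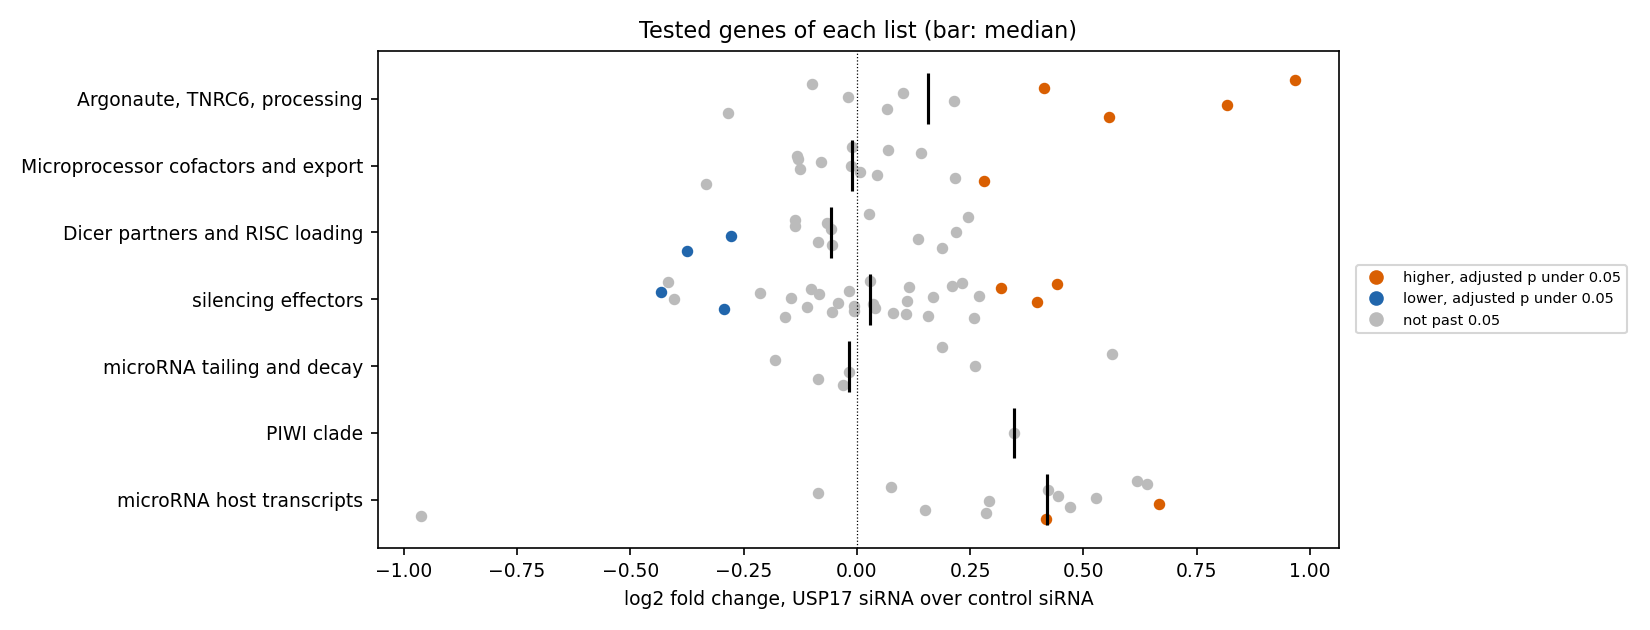
Log2 fold change of every tested gene in each list, USP17 siRNA over control siRNA, with 1 point for each gene, colours for genes past an adjusted p of 0.05, and a bar at each list's median. The 4 members that rose lie at 0.41 to 0.97. The highest called gene of the 3 lists of cofactors, partners and effectors is PAN3, at 0.44. The called host transcripts lie at 0.67 (MIR193BHG) and 0.42 (DLEU2).

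Genes with the pattern most like that of a member were sought among 12053 genes with a mean log2 CPM of at least 1, by the root mean square distance of centred log2 CPM over the 5 libraries. The nearest to AGO1 were ZFYVE16, USP37 and ZNF468, at distances of 0.025, 0.026 and 0.027. The nearest to TNRC6C were ZNF701 (0.024), SYNM (0.05) and PPP1R26-AS1 (0.059). The nearest to DGCR8, the processing gene with the smallest p, were SLC35E2B (0.018), LINC00461 (0.027) and WDR90 (0.027). The likeness rests on 5 libraries only.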

How the data were processed

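Per the labels' protocols, poly(A) RNA was made into libraries with KAPA RNA HyperPrep. Per the submitters' processing notes, tools were bcl2fastq 2.20, STAR 2.7.1a and RSEM 1.3.2 on GRCh38; annotation release, strand setting and read layout: not given in the sources used here. Read counts per gene, as deposited, are whole numbers in STAR's layout. Sense-strand counts were used, which were 18.7 to 19.9 times the antisense ones. Rows naming no gene (22.8% to 24.4% of reads) were left out. The deposited RSEM tables give expected counts, TPM and mean transcript length. Expected counts were rounded to whole numbers for 1 alternative; members' expected counts were 0.931 to 1.013 times their reads, and opposite-strand reads 0.429% to 2.03%.

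Genes passing filterByExpr (minimum count 10, total 15) were compared in R 4.3.3 with edgeR 4.0.16 (TMM, quasi-likelihood F test, two-sided, Benjamini-Hochberg over all genes at 0.05). The fit was also run on simulated counts. Those were drawn for each gene independently, with the within-group spread fitted to these 5 libraries. They held no differences among siRNAs of the same group that many genes share, so that run cannot speak to such differences. CPM are TMM-scaled; log2 CPM used a prior count of 2. No 2 libraries agreed within sampling noise (chi-square per degree of freedom at least 6.02). That value was 6.02 to 11.9 among the USP17 siRNA libraries, 29.2 between the 2 controls and 30.7 to 51 between the groups. Alternatives used DESeq2 1.42.0, limma 3.58.1, other filters and counts, and each library left out. Named genes were the members, up to 6 called genes with the smallest p per list, and the 3 nearest patterns for 1 member per family; XRN2, the neighbours on chromosome 1, markers and uncalled list genes fall outside that rule and were chosen after their values were seen. All 121 list and marker genes outside the members matched. The length threshold, 7-base strings, promoter motifs and neighbours were chosen after the values were seen. Members and lists were chosen with earlier results of these data known.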

Additional observations from a re-analysis of the deposited data

How the results depend on the processing

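TNRC6C kept its direction and call in every alternative run, and the other called members, AGO1, AGO4 and TNRC6A, in every one that kept all libraries. Leaving out 1 library gave 130 to 2633 called genes over all (50 to 1384 higher and 80 to 1425 lower), with 349 (135 higher, 214 lower) without siIDT and 1041 (425 higher, 616 lower) without siSMPLT, and 1 to 5 called members (1 to 4 higher, 0 to 1 lower). In edgeR's main setting 0 members were called lower, and 1, AGO2, was lower at an unadjusted p of 0.0057; AGO2 was called with DESeq2's size factors, DESeq2's Wald test, unstranded counts and without siNT. Signs turned for AGO3 without siL2 (-0.104) and for DICER1 without siL2 (0.12) and without siSMPLT (0.028), none of them called. The AGO2 share differed by -9.99 percentage points in TPM, by -13.73 from reads, by -13.79 from RSEM counts, both without length scaling, and by -7.09 to -12.89 when 1 library was left out. Among named genes that are no members, calls lost numbered 12 (siIDT left out), 17 (sino4), 9 (siSMPLT), 3 (siL2) and 2 (siNT). With 1 control left, that library is taken to vary as the others do. Fewer libraries enter those fits; for the other settings the cause was not tested. No paired analysis was possible because replicate numbers only follow accession order.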

Other observations

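XRN2, a nuclear exonuclease on the tailing and decay list, stood apart in 1 control. It measured 274, 265 and 258 CPM in siIDT, sino4 and siSMPLT and 247.6 CPM in siNT, but 111.5 CPM in siL2. It was not called (log2 fold change 0.56 ± 0.26 SE, adjusted p 0.199 in edgeR's test), and without siL2 the log2 fold change was 0.10 (adjusted p 0.359), against 1.252 without siNT (0.000363), which compares with siL2 alone. It was named after its values were seen.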
